A study of Mus musculus with 8 samples.

Results

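The genes examined here make, break down or bind hyaluronan, and they were followed in cultured mouse brain pericytes given TGF-β1 or vehicle. They were taken by name, after the Ensembl identifiers of the count files had been mapped to mouse symbols, and are 10 of the 54532 genes counted. They comprise the hyaluronan synthases *Has1*, *Has2* and *Has3*, the degrading proteins *Hyal1*, *Hyal2* and *Cemip*, the receptor *Cd44*, and the binding proteins *Vcan*, *Acan* and *Tnfaip6*. The list was drawn up with results of this same comparison known, so the differences of its members are given as a description and their number supports nothing.

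Hyaluronan is a long, unsulfated sugar polymer that synthases in the plasma membrane extrude directly into the extracellular space, building it from UDP-glucuronic acid and UDP-N-acetylglucosamine. Outside the cell it is held at the surface by receptors such as CD44, is organised by proteoglycans and link proteins, and is cut by hyaluronidases and related proteins into fragments that are taken up and digested in lysosomes. In brain it forms the backbone of an extracellular matrix in which the lectican proteoglycans, versican and aggrecan among them, are anchored.

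Primary wild-type pericytes from mouse brain were cultured and sampled at 48 h, 4 cultures with vehicle (labelled 1 to 4) and 4 with TGF-β1 at 5 μg/mL (labelled 5 to 8), a secreted cytokine that signals through SMAD proteins. Total RNA was sequenced with a stranded library kit. The methods of the study describe pericytes grown out from papain-digested brain in an endothelial growth medium, then moved to pericyte medium, and used after several passages, so all cultures are passaged cells away from vessels. Those methods describe 4 independent isolates given vehicle and TGF-β1, which can be read as both treatments on each isolate. The labels do not tie a vehicle culture to a TGF-β1 culture, so the groups were compared as unpaired. Any differences between isolates stayed in the spread. The p-values measure the spread between these cultures, which may be partly technical.

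The 8 cultures had between 45255235 and 47651397 counts, and the totals of the groups were alike in mean (p = 0.857 in a two-sided exact permutation test). At this depth 3 counts, the limit used for a gene that is not seen, came to 0.0630 to 0.0663 CPM (counts divided by the scaled library size). Of the counts between 1 and 20, 68.5% to 70.2% were even numbers, so counts may not be independent molecules, and limits from counts cover counting error only. Of 10 pericyte markers, 7 passed the filter on low counts. *Pdgfrb* (202 CPM in vehicle and 291 in TGF-β1 cultures), *Cspg4* (82.9 and 169) and *Notch3* (88.5 and 85.9) were well expressed. *Anpep* was at 40.5 and 30.1 CPM, *Mcam* at 5.25 and 10.1, *Rgs5* at 8.62 and 2.13, and *Des* at 0.685 and 0.623. The brain pericyte markers *Kcnj8*, *Abcc9* and *Vtn* were near 0. *Pdgfrb*, *Cspg4* and *Mcam* were called higher and *Rgs5* and *Anpep* lower with TGF-β1, and *Notch3* and *Des* were not called. The 7 fibroblast markers summed to 9347 to 9614 CPM in vehicle and 12855 to 13619 in TGF-β1 cultures, led by *Fn1* and the collagen I genes, with *Lum* and *Slc6a13* near 0. The 5 smooth muscle markers summed to 695 to 765 CPM in vehicle and 705 to 742 in TGF-β1 cultures, of which *Acta2* made up nearly all. Of the 7 endothelial markers *Cdh5* was at 375 and 367 CPM, *Kdr* at 17.9 and 18.6, *Tek* at 2.71 and 1.99 (called lower), *Vwf* at 1.58 and 3.81 (called higher) and *Pecam1* at 1.11 in each group, while *Cldn5* and *Tie1* were near 0. Macrophage and microglial markers summed to at most 11.1 CPM, with *C1qb* at 0, astrocyte markers to at most 26.4, neuronal markers to at most 11.7 and oligodendrocyte lineage markers to at most 6.11. The summed pericyte, fibroblast, macrophage, astrocyte and neuronal markers did not overlap between the groups, each sum being higher with TGF-β1. These sums rest on a few genes, and genes within a list differed. Among tested fibroblast markers 3 were called higher and *Dcn* lower, and *Pdgfra* was not called. *Csf1r* was the only macrophage marker called, and *Tubb3* (2.11 to 7.91 CPM) the only neuronal one. Of 3 tested astrocyte markers, 2 were called higher. How far shifts in these sums bear on the results below was not tested. In bulk RNA, fewer cells of a type and less RNA per cell cannot be told apart.

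The 3 synthases did not move together. *Has2* was the lowest synthase in vehicle and rose about 11-fold with TGF-β1, while *Has1*, the most abundant synthase transcript in both groups, and *Has3* changed little. The 3 genes lie on different chromosomes, *Has1* (ENSMUSG00000003665) at chr17:17843323-17855205 on the minus strand, *Has2* (ENSMUSG00000022367) at chr15:56665627-56694539 on the minus strand, and *Has3* (ENSMUSG00000031910) at chr8:106870242-106884566 on the plus strand of GRCm38. Their coding sequences are 1749, 1656 and 1662 bases long and are related, with 56.8% of aligned bases identical between *Has1* and *Has2*, 61.7% between *Has1* and *Has3*, and 67.2% between *Has2* and *Has3*. The best conserved 60-base window shows how alike the counted transcripts are and that they can still be told apart. It lies in the last coding exon of each gene, at chr17:17844182-17844241 (minus strand, exon 5 of 5), chr15:56668214-56668273 (minus strand, exon 4 of 4) and chr8:106878220-106878279 (plus strand, exon 4 of 4). The sequences are written 5′ to 3′ from the reference genome, and capitals mark the 16 positions at which the 3 genes are not all the same, the other 44 being identical in all 3.
Has1: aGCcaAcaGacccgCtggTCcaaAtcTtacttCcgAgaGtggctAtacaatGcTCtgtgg
Has2: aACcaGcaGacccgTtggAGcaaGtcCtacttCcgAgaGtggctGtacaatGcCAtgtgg
Has3: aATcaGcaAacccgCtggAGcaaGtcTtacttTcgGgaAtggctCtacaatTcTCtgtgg

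The longest run of identical bases in any pair of coding sequences was 23, between *Has2* and *Has3*. No 50-base word of any synthase transcript occurred in a transcript of another gene on the same strand, so reads of that length could not be shared between synthases. On the opposite strand, 2.1% of the words of *Has2* were shared, where the antisense gene *Has2os* overlaps it, and 4.79% of those of *Has3*.

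*Has2*, which encodes the synthase required for embryonic heart development, was at 1.91, 2.02, 2.50 and 1.56 CPM in vehicle cultures 1 to 4 and at 17.4, 25.3, 19.8 and 25.5 CPM in TGF-β1 cultures 5 to 8. Every TGF-β1 culture was several-fold above every vehicle culture, and within the TGF-β1 group cultures 6 and 8 were higher than 5 and 7. The counts behind these values were 72 to 119 per vehicle culture and 797 to 1197 per TGF-β1 culture. The mean rose from 2.00 ± 0.390 CPM (SD, n = 4) to 22.0 ± 4.06 (SD, n = 4), a log2 fold change of 3.46 (SE 0.19, 95% interval 3.08 to 3.84). This was the fifth largest rise (rank 5) of the 22544 genes tested. The replicates of *Has2* were more spread than those of most genes. The coefficient of variation was 19.5% in vehicle and 18.5% in TGF-β1 cultures, and 75.2% of tested genes had a lower fitted biological variation.

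*Has1*, which encodes another synthase of the family, was at 66.4, 62.3, 57.9 and 57.0 CPM in vehicle and at 65.2, 60.7, 63.0 and 62.9 CPM in TGF-β1 cultures. The groups overlapped over most of their range. The log2 fold change was 0.05 (SE 0.04, 95% interval −0.03 to 0.12) and did not pass the test (edgeR quasi-likelihood, Benjamini-Hochberg adjusted p = 0.338). Without vehicle culture 1, the highest in its group, the log2 fold change was 0.10 with an adjusted p of 0.0310 in the same test (0.0310 to 0.782 over all alternatives).

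*Has3* was at 9.87, 11.2, 9.996 and 9.45 CPM in vehicle and at 9.47, 11.1, 7.92 and 9.11 CPM in TGF-β1 cultures. Here too the groups overlapped, with the lowest value in TGF-β1 culture 7. The log2 fold change was −0.11 (SE 0.08, 95% interval −0.27 to 0.05, edgeR quasi-likelihood, Benjamini-Hochberg adjusted p = 0.309). These intervals leave room for small changes of *Has1* and *Has3* in either direction, but none near that of *Has2*.

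**Figure D1:**
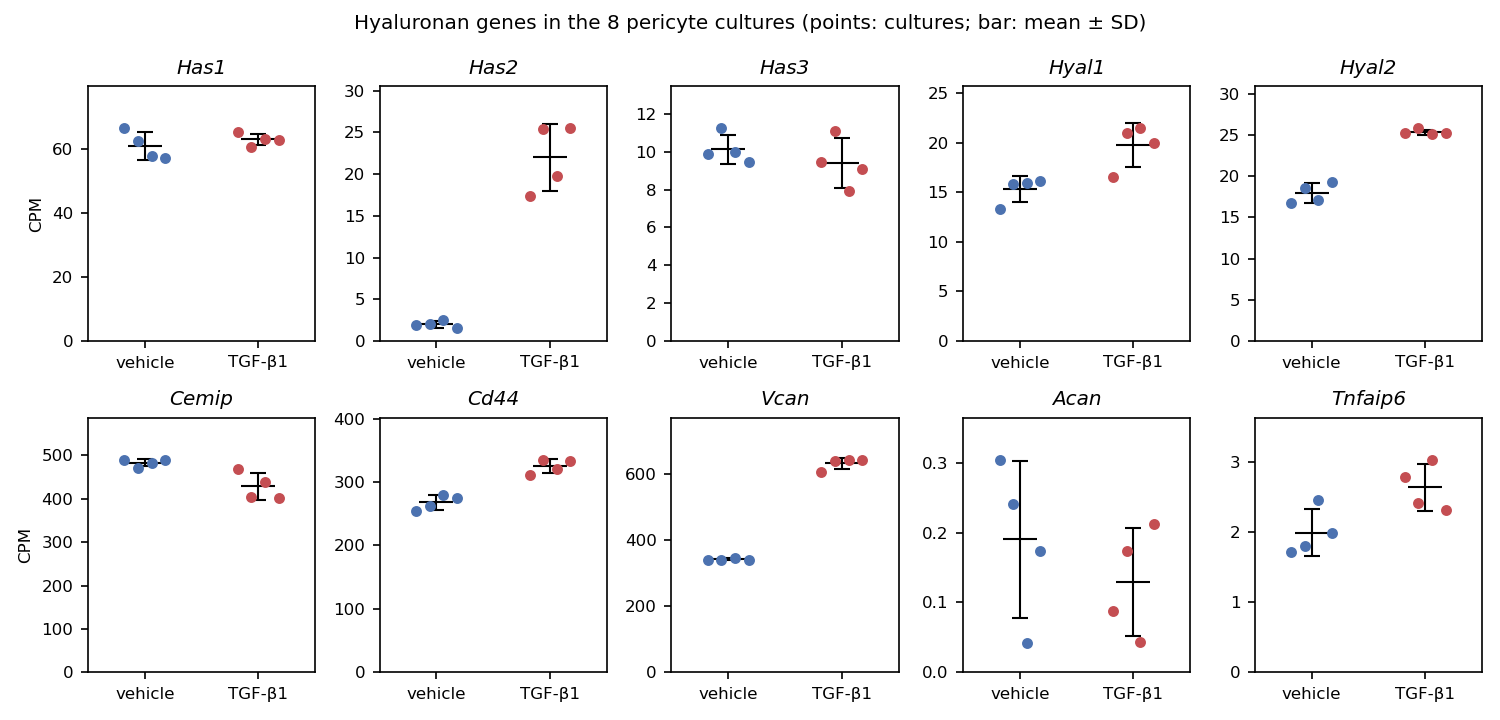
CPM (y axis, from 0, its own scale in each panel) of the 10 hyaluronan genes in the 4 vehicle (blue) and 4 TGF-β1 (red) cultures, with each point a culture and the bar and whiskers the mean ± SD. Has2 separates the groups most widely (1.56 to 2.50 against 17.4 to 25.5 CPM), Hyal1, Hyal2, Cd44 and Vcan sit higher and Cemip lower with TGF-β1, and Has1, Has3, Acan and Tnfaip6 overlap.

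Levels of different genes were compared as RPKM (CPM divided by the exon length in kilobases), so that longer genes do not appear higher. On this scale the 3 synthases summed to 15.54 ± 1.005 RPKM (SD, n = 4) in vehicle and to 20.6 ± 0.775 (SD, n = 4) in TGF-β1 cultures. *Has2* made up 3.04 ± 0.631% of that sum in vehicle and 25.1 ± 3.78% in TGF-β1 cultures, *Has1* fell in share from 86.7 ± 1.11% to 67.7 ± 4.06%, and *Has3* from 10.2 ± 0.714% to 7.15 ± 0.866%. So *Has2* passed *Has3* with TGF-β1, and *Has1* was still the main synthase transcript in every culture. These shares depend on the length given to *Has1*, whose annotated exons (4518 bases in union) include a retained intron. With the longest protein-coding transcript of each gene as its length (2095 bases for *Has1*), a choice made after the data were seen, the share of *Has2* was 1.51 ± 0.322% in vehicle and 14.1 ± 2.47% in TGF-β1 cultures.

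**Figure D2:**
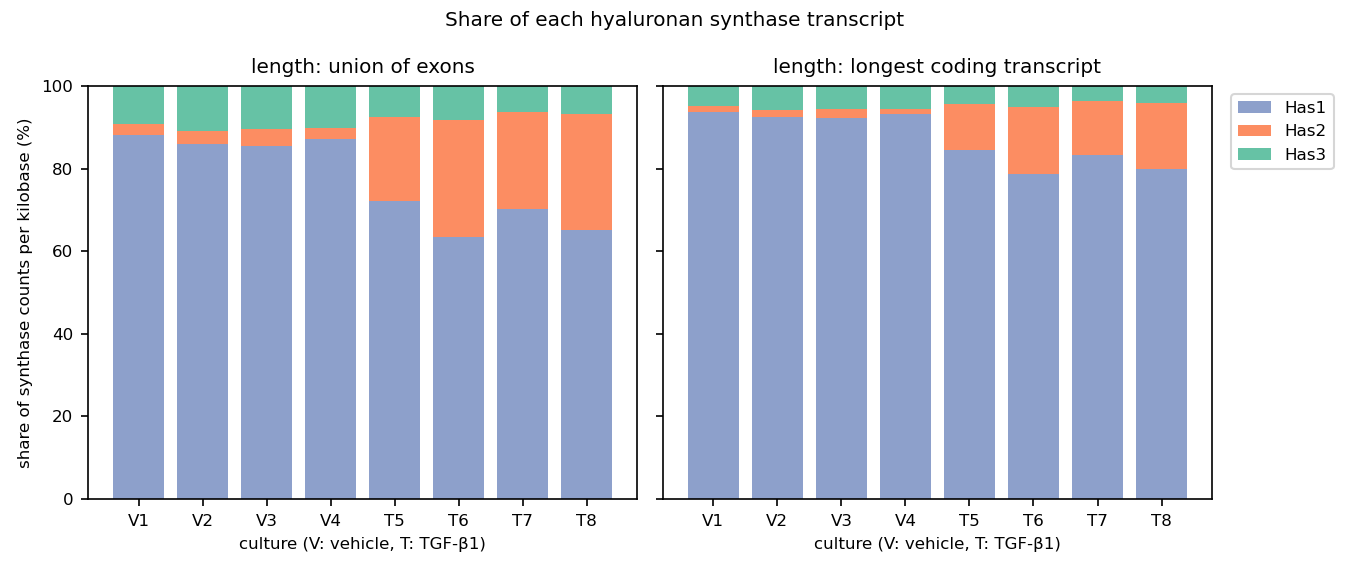
Share (y axis, percent) of the summed synthase counts per kilobase that came from Has1 (blue), Has2 (orange) and Has3 (green) in each culture (x axis, V1 to V4 vehicle, T5 to T8 TGF-β1), with the union of exons (left) or the longest protein-coding transcript (right) as the gene's length. The Has2 share was 2.54% to 3.95% in vehicle and 20.5% to 28.3% in TGF-β1 cultures on the left, and smaller on the right, where Has1 is counted as a shorter transcript.

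Among the degrading proteins, the transcripts of the hyaluronidases *Hyal1* and *Hyal2* were higher with TGF-β1 and that of *Cemip* was slightly lower. *Hyal2* (ENSMUSG00000010047, chr9:107567945-107572779, plus strand) encodes a membrane-anchored hyaluronidase that cuts long hyaluronan at the cell surface. It was at 16.7, 18.6, 17.1 and 19.3 CPM in vehicle and at 25.3, 25.8, 25.1 and 25.3 CPM in TGF-β1 cultures. The TGF-β1 cultures were nearly equal and all above the vehicle cultures, and the log2 fold change was 0.50 (SE 0.05). *Hyal1* (ENSMUSG00000010051, chr9:107576927-107581710, plus strand) encodes the lysosomal hyaluronidase that digests smaller fragments. It was at 13.3, 15.9, 15.9 and 16.1 CPM in vehicle and at 16.5, 21.0, 21.4 and 19.98 CPM in TGF-β1 cultures. TGF-β1 culture 5 lay just above the highest vehicle culture and the other 3 well above it, with a log2 fold change of 0.37 (SE 0.07). The count of *Hyal1* is uncertain, because its exons overlap those of its same-strand neighbours *Hyal3* and *Naa80* over 51.92% of their length, and 49.65% of its 50-base words occur in transcripts of other genes.

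*Cemip* (ENSMUSG00000052353, chr7:83932857-84086502, minus strand) encodes a secreted protein that binds hyaluronan and is needed for its depolymerisation in skin fibroblasts. It was at 488, 472, 483 and 489 CPM in vehicle and at 469, 404, 439 and 402 CPM in TGF-β1 cultures. The vehicle cultures were close together, and TGF-β1 culture 5 was only just below them. Within the TGF-β1 group the cultures with the higher *Cemip*, 5 and 7, were those with the lower *Has2*. They were also lower than 6 and 8 in *Cd44* and *Acan* and higher in *Has1* and *Tnfaip6*. *Has3*, *Hyal1*, *Hyal2* and *Vcan* did not split the cultures so. These orders were noticed after the values were seen, and no link was tested. The log2 fold change of *Cemip* was −0.17 (SE 0.05, edgeR quasi-likelihood, Benjamini-Hochberg adjusted p = 0.0136). Its call was lost without vehicle culture 1 (adjusted p = 0.0705), 3 (0.0645) or 4 (0.0558) in that test. Over all alternatives the adjusted p ran from 9.99e-13 to 0.0705.

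*Cd44* (ENSMUSG00000005087, chr2:102811141-102901665, minus strand), the principal cell-surface receptor for hyaluronan, was at 254, 263, 280 and 275 CPM in vehicle and at 311, 335, 321 and 333 CPM in TGF-β1 cultures. All TGF-β1 cultures were above all vehicle cultures by a modest margin. The mean rose from 268 ± 11.5 to 325 ± 11.1 CPM (SD, n = 4 each), a log2 fold change of 0.28 (SE 0.03).

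The transcripts of the binding proteins ranged from *Vcan*, which was strongly expressed and higher with TGF-β1, to *Acan* at the limit of detection. *Vcan* (ENSMUSG00000021614, chr13:89655312-89742509, minus strand) encodes versican, a large proteoglycan that carries a hyaluronan-binding domain at its amino terminus. It was at 339, 341, 346 and 341 CPM in vehicle and at 607, 638, 641 and 642 CPM in TGF-β1 cultures. The groups were far apart for their spread, and TGF-β1 culture 5 was below the other 3 of its group. The mean went from 342 ± 3.20 to 632 ± 17.1 CPM (SD, n = 4 each), a log2 fold change of 0.89 (SE 0.02), which ranked 740 from the top of all genes tested.

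*Tnfaip6* (ENSMUSG00000053475, chr2:52038009-52056686, plus strand) encodes TSG-6, which transfers heavy chains of inter-alpha-trypsin inhibitor onto hyaluronan. It was at 1.71, 1.80, 2.46 and 1.99 CPM in vehicle and at 2.79, 2.42, 3.03 and 2.32 CPM in TGF-β1 cultures, with 79 to 139 counts per culture. Vehicle culture 3 lay within the range of the TGF-β1 cultures, so the groups overlapped. The log2 fold change was 0.40 (SE 0.15, edgeR quasi-likelihood, Benjamini-Hochberg adjusted p = 0.0224), and in that test the call was lost without vehicle culture 1 (adjusted p = 0.0800) or 2 (0.0665) or TGF-β1 culture 5 (0.0595) or 7 (0.106). Over all alternatives the adjusted p ran from 0.00524 to 0.106.

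*Acan* (ENSMUSG00000030607, chr7:79053483-79115099, plus strand), which encodes aggrecan, the proteoglycan of cartilage and of perineuronal nets, was barely detected. It had 14, 11, 2 and 8 counts in vehicle and 4, 8, 2 and 10 in TGF-β1 cultures, and 1 culture of each group was under 3 counts. The gene did not pass the filter on low counts and was not tested in the edgeR fit. At this depth no difference was detectable.

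Of the 10 genes listed, 9 were tested, 6 were called higher and 1 lower with TGF-β1, and 2 were not called. Over all 22544 genes tested, 41.3% were called, 20.9% higher and 20.3% lower (with DESeq2, 32.8%, 17.3% and 15.5% of its 26385), and nothing is read from the members' counts beside these, since the comparison was known when the list was made. In 6 members the groups did not overlap, against 37.9% of all genes tested. The median log2 fold change of the 9 tested members was 0.37, or 0.32 without *Has2*, and that of all genes tested was −0.01. The study's methods also require an absolute log2 fold change above 1.5, a rule that 2.0% of all genes tested met, and *Has2* was the 1 member that met it. On either side of that limit, *Has2* stood at 3.46 and the next member, *Vcan*, at 0.89.

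**Figure D3:**
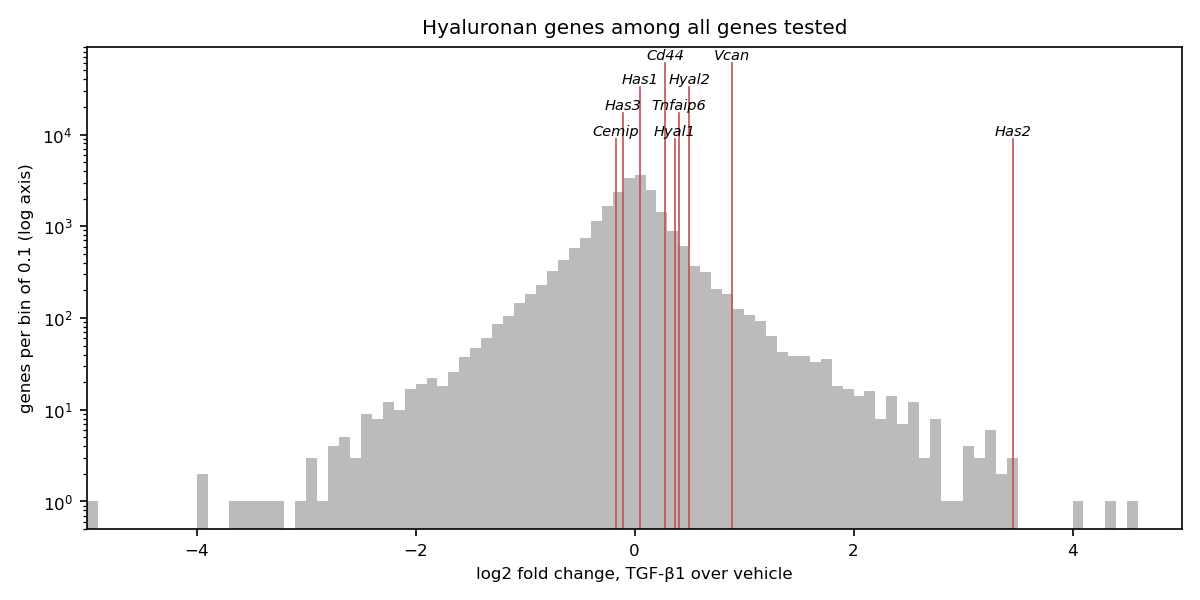
Number of genes (y axis, log scale) per 0.1 of log2 fold change, TGF-β1 over vehicle (x axis), for the 22544 genes tested, with red lines at the 9 tested hyaluronan genes. Has2 (3.46) lies in the far right tail, Vcan (0.89) on the right shoulder, and the other 7 between −0.17 and 0.50.

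With the union of exons as the length, the *Cd44*, *Cemip* and *Vcan* transcripts were the most abundant of the members in both groups. In vehicle cultures *Cd44* and *Cemip* came first, both at 39.5 RPKM and with overlapping ranges, followed by *Vcan* (23.6), *Has1* (13.5), *Hyal2* (5.45), *Hyal1* (4.06), *Has3* (1.59), *Tnfaip6* (1.16), *Has2* (0.472) and *Acan* (0.0255), with no overlap between these neighbours. In TGF-β1 cultures *Cd44* was at 47.9 RPKM, *Vcan* at 43.7 and *Cemip* at 35.0, so that *Vcan* was above *Cemip* with the union of exons as the length. *Has2* rose to 5.19 RPKM, overlapping *Hyal1* at 5.23, and *Tnfaip6* (1.54) overlapped *Has3* (1.47). With the longest protein-coding transcript as the length, *Cemip* alone came first in vehicle at 68.0 RPKM and overlapped *Cd44* at the top of the TGF-β1 cultures (60.3 and 57.9 RPKM), above *Vcan* at 50.9, and *Has1* (29.1) overlapped *Vcan* (27.5) in vehicle.

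**Figure D4:**
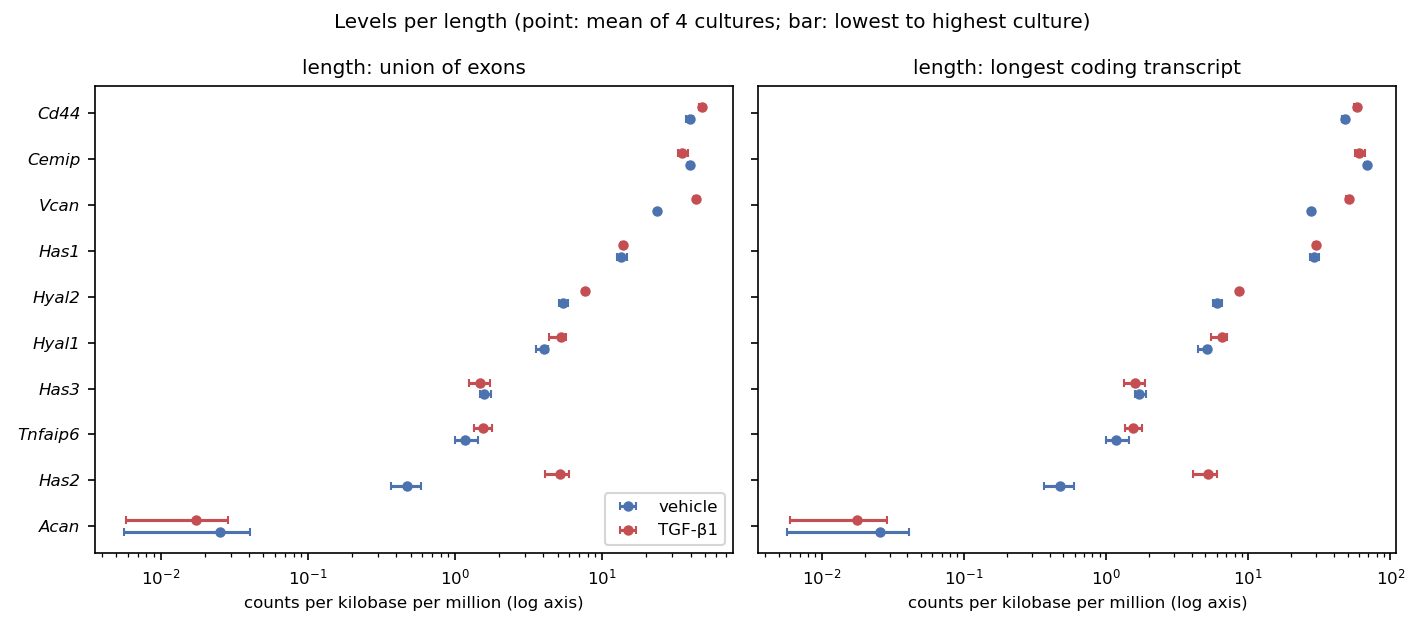
RPKM (x axis, log scale) of the 10 hyaluronan genes in vehicle (blue) and TGF-β1 (red) cultures, with points the means of 4 cultures and bars from the lowest to the highest culture, for the union of exons (left) and the longest protein-coding transcript (right). In vehicle the genes run from Acan (0.0255) to Cd44 and Cemip (39.5 each) on the left, and Has2 moves from 0.472 to 5.19.

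The genes whose profile over the 8 cultures was most like that of *Has2* were sought among 16493 genes with a mean of at least 1 CPM, by the root mean square difference of log2 CPM after each gene was centred on its vehicle mean. Among the 5 nearest were *Prss46* (difference 0.220), *C430002N11Rik* (0.299), *Il1rl1* (0.331) and *Mcpt8* (0.332). *Il1rl1*, which encodes the receptor for interleukin-33, went from 6.56 ± 0.854 to 56.0 ± 5.99 CPM. *Prss46*, *C430002N11Rik* and *Mcpt8* were at no more than 0.356 CPM on average in vehicle, so they passed the level filter only through the TGF-β1 cultures. With each gene centred on its vehicle mean, likeness here mostly follows the size of the rise.

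Upstream sequence was available for 8 of the 10 members (RefSeq, GRCm38.p6, the 250 bases before the annotated start), and *Has2* and *Has3* had no entry. The start is the one in RefSeq and can differ from the gene positions given above. The windows of *Tnfaip6*, *Has1* and *Hyal1* reach partly into those positions, and that of *Hyal2* lies wholly inside them. Each was searched on both strands for the Smad box CAGAC, the AP-1 motif TGANTCA, the GC-rich Smad element GGCGCC and the TATA box TATAAA. The promoters shown are those of *Vcan*, the largest rise with an entry, *Cemip*, the member that was lower, and *Tnfaip6*, the one with an AP-1 match. Their positions are chr13:89742513-89742762 (minus strand), chr7:84086506-84086755 (minus strand) and chr2:52037863-52038112 (plus strand), and capitals mark the matches.
Vcan: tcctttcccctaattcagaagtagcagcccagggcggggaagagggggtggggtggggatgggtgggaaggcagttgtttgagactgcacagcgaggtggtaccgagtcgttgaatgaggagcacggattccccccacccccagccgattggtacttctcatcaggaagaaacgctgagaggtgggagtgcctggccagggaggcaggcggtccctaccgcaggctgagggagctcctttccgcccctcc
Cemip: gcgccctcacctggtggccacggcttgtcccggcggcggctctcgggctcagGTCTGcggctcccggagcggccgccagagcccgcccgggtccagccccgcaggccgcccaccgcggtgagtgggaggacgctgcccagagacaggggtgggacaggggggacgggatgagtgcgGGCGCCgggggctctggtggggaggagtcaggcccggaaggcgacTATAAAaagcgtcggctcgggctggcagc
Tnfaip6: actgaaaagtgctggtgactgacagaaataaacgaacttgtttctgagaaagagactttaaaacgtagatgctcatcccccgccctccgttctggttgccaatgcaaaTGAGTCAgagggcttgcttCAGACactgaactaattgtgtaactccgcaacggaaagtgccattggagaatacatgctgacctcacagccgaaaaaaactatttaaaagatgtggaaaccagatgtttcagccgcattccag

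The *Cemip* sequence held CAGAC on its reverse strand at 198, GGCGCC at 74 and TATAAA at 29 bases before the start, and 75.2% of its bases were G or C, against a median of 52.4% over 32851 promoters. That of *Tnfaip6* held TGANTCA at 142 and CAGAC at 123 bases before the start, with 44.4% G or C, and that of *Vcan* held none of the 4 motifs. Elsewhere CAGAC was found in *Has1* (at 94 and 18 bases before the start) and *Hyal1* (at 117), and the windows of *Hyal2*, *Cd44* and *Acan* held no match. No matches overlapped each other. Of the 32851 promoters, 42.2% held CAGAC, 6.7% TGANTCA, 9.6% GGCGCC and 12.4% TATAAA, so the first of these matches is common. Members with and without a match rose, and a match is a description of letters only.

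A further 59 genes of the pathway were listed by role and not by how they moved, though with earlier results of these data known. Of these 50 were tested, 21 were higher, 13 were lower and 16 were not called (edgeR quasi-likelihood, Benjamini-Hochberg adjusted p under 0.05), beside 20.9% higher and 20.3% lower among all genes tested. Their median log2 fold change was 0.03, and that of all genes tested −0.01. The counts of the role groups are descriptions to be read beside the same shares, and none was tested against them. The adjusted p-values that follow are from this edgeR fit, corrected by the Benjamini-Hochberg procedure over all 22544 genes.

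Of the genes for enzymes that prepare the sugar precursors, 9 of 14 were higher and 2 lower with TGF-β1, beside 20.9% and 20.3% of all genes tested. *Ugdh*, whose product makes UDP-glucuronic acid, rose from 96.7 ± 4.13 to 145 ± 2.17 CPM (SD, n = 4 each), with a log2 fold change of 0.58 (SE 0.03, adjusted p = 1.12e-21). *Hk2*, which encodes a hexokinase that phosphorylates glucose, was at 32.8, 35.1, 38.3 and 37.6 CPM in vehicle and at 99.5, 110, 107 and 111 in TGF-β1 cultures. That was the largest change of the group, with a log2 fold change of 1.57 (SE 0.04, adjusted p = 5.27e-21), and the groups were far apart. *Gpi1* and *Pgm1*, which encode enzymes that interconvert sugar phosphates, each rose by 0.45 on the log2 scale (adjusted p = 1.33e-20 and 5.21e-14). *Hk1*, *Hk2* and *Gpi1* also serve glycolysis, and *Pgm1* glycogen metabolism.

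Of 9 other genes for hyaluronidases and hyaluronan-depolymerising enzymes, 5 were tested, 2 being higher and 1 lower. *Cemip2*, the transmembrane relative of *Cemip*, was not called and stood at 133 ± 2.92 CPM in vehicle and 136 ± 2.55 in TGF-β1 cultures (log2 fold change 0.04, SE 0.03, 95% interval −0.02 to 0.09, adjusted p = 0.304). *Hexa* and *Gusb*, which encode lysosomal enzymes that take part in the last steps of hyaluronan breakdown, moved in opposite directions. *Hexa* fell by 0.54 on the log2 scale (SE 0.03, adjusted p = 4.67e-22), from 336 to 232 CPM. *Gusb* rose by 0.20 (adjusted p = 9.49e-05).

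Of the 7 other receptor genes, 2 were higher and 2 lower. *Layn*, which encodes the membrane receptor layilin, rose from 37.1 ± 1.10 to 54.1 ± 1.57 CPM (SD, n = 4 each; log2 fold change 0.54, SE 0.04, adjusted p = 6.77e-17). The scavenger receptor genes, both at low levels, went opposite ways. *Stab1* rose from 0.869 to 1.95 CPM (log2 fold change 1.16, SE 0.19, adjusted p = 1.18e-06) and *Stab2*, which encodes a clearance receptor for hyaluronan, fell from 3.92 to 2.27 CPM (log2 fold change −0.79, SE 0.13, adjusted p = 2.5e-06). *Tlr2* fell by 0.39 on the log2 scale (adjusted p = 3.05e-07). *Hmmr*, which encodes the hyaluronan-mediated motility receptor and is also a mitotic gene, was at 87.4 ± 6.18 and 88.8 ± 1.45 CPM and was not called (log2 fold change 0.02, 95% interval −0.05 to 0.09, adjusted p = 0.652).

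Of the 18 genes for other binding and cross-linking proteins, 13 were tested, with 4 higher and 4 lower. *Ptx3*, which encodes a pentraxin that works with TSG-6 in cross-linking hyaluronan, was at 0.564, 1.07, 0.842 and 1.23 CPM in vehicle and at 3.03, 2.46, 2.95 and 2.62 in TGF-β1 cultures (log2 fold change 1.57, SE 0.18, adjusted p = 4.22e-10). The groups did not overlap, though the level was low. *Itih2*, which encodes a heavy chain that TSG-6 transfers to hyaluronan, fell from 124 ± 3.12 to 69.4 ± 3.55 CPM (SD, n = 4 each; log2 fold change −0.84, SE 0.03, adjusted p = 1.18e-25). *Itih4*, at 1.61 CPM in vehicle and 0.963 in TGF-β1 cultures, fell by 0.74 (SE 0.20, adjusted p = 0.00203). The link protein gene *Hapln4* rose by 0.57 (SE 0.07, adjusted p = 2.06e-09). *Hapln1*, at 1.41 ± 0.205 and 1.012 ± 0.207 CPM (SD, n = 4 each), had a log2 fold change of −0.48 (SE 0.20, adjusted p = 0.0451). That call was lost with DESeq2 (adjusted p = 0.0876) and with at least 1 count in any culture as the filter (adjusted p = 0.0803). It was also lost without vehicle culture 2 or 3 or TGF-β1 culture 5 or 7 (adjusted p from 0.0357 to 0.169 over all alternatives).

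Of the 7 genes for proteases that cut versican or aggrecan, 1 was higher and 3 were lower. *Adamts15* was at 143, 144, 129 and 129 CPM in vehicle and at 50.9, 39.4, 44.0 and 35.6 in TGF-β1 cultures. It was the largest fall in the pathway list, with a log2 fold change of −1.68 (SE 0.11, adjusted p = 2.17e-05). *Adamts9* fell by 0.96 (SE 0.13, adjusted p = 6.43e-08), from 5.66 to 2.92 CPM, and *Adamts4* by 0.12 (SE 0.04, adjusted p = 0.00966), a call lost without TGF-β1 culture 8 (adjusted p = 0.0622, against 0.00395 to 0.0622 over all alternatives). *Adamts5* rose from 9.95 ± 1.16 to 18.2 ± 1.23 CPM (SD, n = 4 each; log2 fold change 0.87, SE 0.07, adjusted p = 3.57e-14).

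The transcripts of the proteins that tie CD44 to the actin cytoskeleton also diverged. *Msn*, which encodes moesin, rose from 718 ± 12.8 to 1094 ± 48.0 CPM (SD, n = 4 each; log2 fold change 0.61, SE 0.02, adjusted p = 7.84e-23). *Ezr*, which encodes ezrin, fell by 0.43 (SE 0.02, adjusted p = 3.11e-20), from 428 to 317 CPM. *Rdx* differed by 0.07 (SE 0.03, adjusted p = 0.0256), a call that was lost with library totals as the scaling, with at least 1 count in any culture as the filter, and without vehicle culture 1 or 4 or TGF-β1 culture 5, 6 or 7 (adjusted p from 0.00468 to 0.0931 over all alternatives).

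*Has2os* (ENSMUSG00000086541), the antisense gene at *Has2*, was at 0.239, 0.417, 0.274 and 0.238 CPM in vehicle and at 1.92, 1.63, 1.40 and 1.77 in TGF-β1 cultures. It was higher in all TGF-β1 cultures, with a log2 fold change of 2.52 (SE 0.24, adjusted p = 4.97e-12) from 11 to 19 counts per vehicle culture and 64 to 88 per TGF-β1 culture. The exons of *Has2os* and *Has2* overlap on opposite strands, over 4.3% of the exon length of *Has2* and 11.18% of that of *Has2os*. The strand setting used in counting is not given in the sources used here, so reads from this overlap cannot be told apart. *Has2* had 72 to 119 counts per vehicle culture and 797 to 1197 per TGF-β1 culture. The part of its reads in the difference of *Has2os* was not tested.

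**Figure D5:**
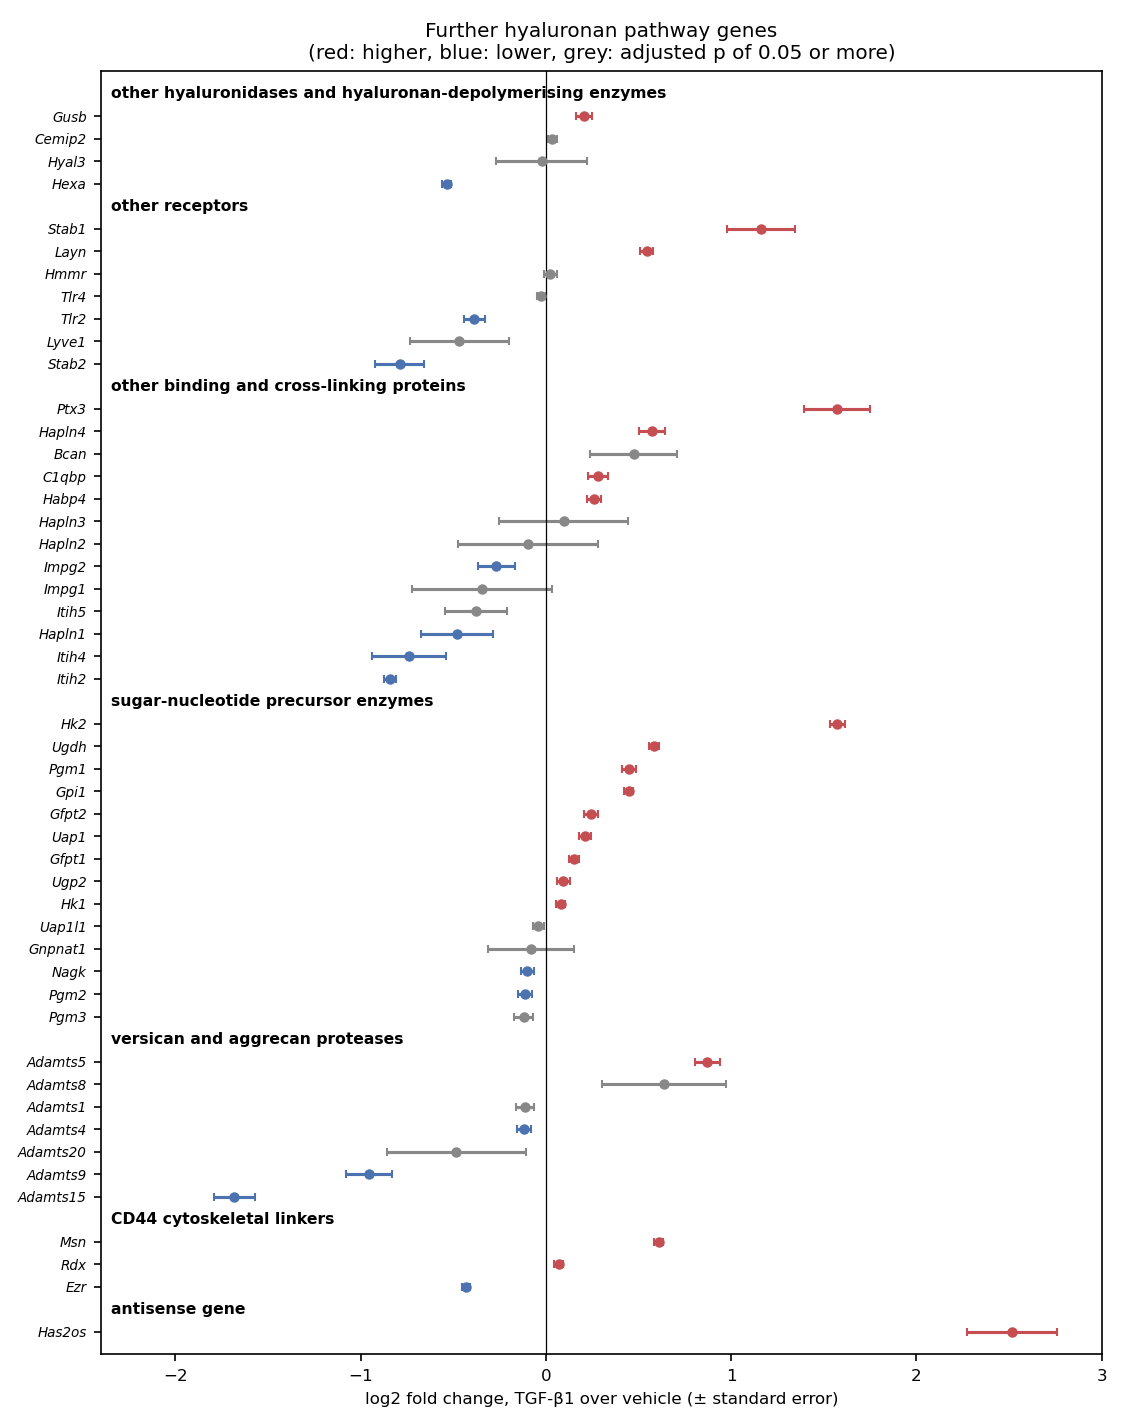
Log2 fold change, TGF-β1 over vehicle (x axis, points with ± standard error), of further pathway genes tested, grouped by role (not every tested gene is drawn), with red for higher, blue for lower and grey for an adjusted p of 0.05 or more. Has2os (2.52), Hk2 (1.57) and Ptx3 (1.57) lie farthest right and Adamts15 (−1.68) farthest left, and most role groups hold genes on both sides of 0.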

How the data were processed

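The deposited files hold raw counts per Ensembl gene, 1 library per culture. The authors used STAR 2.7.5c (2-pass) for alignment to mm10, samtools 1.15 to drop PCR duplicates, and featureCounts 2.0.3. The strand setting, annotation release and treatment of multi-mapping reads are not given in the sources used here. Of 54532 identifiers, 54409 matched a symbol and position in the GENCODE annotation of GRCm38, the assembly that mm10 names.

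The counts of all 8 cultures, 4 vehicle and 4 TGF-β1, were fitted with edgeR 4.0.16 in R 4.3.3 (filterByExpr, TMM factors, robust quasi-likelihood test, treatment only). P-values of the 22544 genes tested were adjusted by Benjamini-Hochberg, and genes under 0.05 were called. CPM were scaled by TMM factors, and RPKM divided CPM by the union of exons. SE is the log2 fold change divided by the square root of F. The 95% intervals are the log2 fold change plus and minus SE times the normal multiplier. They make no allowance for the small number of cultures, so they are narrower than the quasi-likelihood test would give. The totals of 45255235 to 47651397 counts put 3 counts at 0.0630 to 0.0663 CPM. Coding sequences were aligned with mafft 7.526. The code was tested on simulated data.

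Alternatives were DESeq2 1.42.0, other scaling factors, other filters on low counts, counts divided by 2, other gene lengths and each culture left out. The members and lists were chosen with earlier results of these data known. Named were all members, in each further role group the up to 4 largest changes that passed the test, *Has2os*, *Hmmr*, *Hapln1*, *Cemip2* and *Ugdh* whatever their result, the 5 genes most like *Has2*, and markers. Genes named as exon neighbours or by their other roles (*Hyal3*, *Naa80*, *Hk1*) were chosen after their values were seen. The other experiments of the study were not analysed here. A few results covered by the naming rule are left out.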

Additional observations from a re-analysis of the deposited data

Results flagged for a closer look

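In 82 groups of 4 cultures, for the 9 tested members, the named pathway genes, the 5 genes most like *Has2* and the library totals, the highest or lowest culture was set against the others of its group. In 5 it lay far from them (Dixon's test at its 95% critical value), and chance gives about 1 in 20 groups, or 4.1 here. *Hyal1* was at 13.3 CPM in vehicle culture 1, whose nearest neighbour was at 15.9. *Vcan* was at 607 CPM in TGF-β1 culture 5, with the nearest at 638. *Stab2* was at 4.55 CPM in vehicle culture 4, with the nearest at 3.75. *Adamts5* was at 20.1 CPM in TGF-β1 culture 5, with the nearest at 17.7, and *Msn* at 699 CPM in vehicle culture 2, with the nearest at 723. Their part in the differences between the groups was not tested beyond leaving each culture out, under which *Hyal1*, *Vcan*, *Stab2*, *Adamts5* and *Msn* kept their direction and their call.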

How the results depend on the processing

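No paired analysis was possible because the labels number the vehicle cultures 1 to 4 and the TGF-β1 cultures 5 to 8, so the groups share no replicate number. The study's methods can be read as each isolate receiving both. The log2 fold change of *Has2* was 3.45 to 3.47 under the 7 alternatives of tool, scaling, filter and counting, and 3.35 to 3.59 with 1 culture left out. The number of members called higher was 6 under all 7 and 5 to 6 with a culture left out, and the number called lower 1 under all 7 and 0 to 1 with a culture left out, being 0 without vehicle culture 1, 3 or 4 (*Cemip*). Among further genes called lower, DESeq2 gave 2 binding proteins and 1 precursor enzyme, and leaving out a culture gave 2 to 5 (2 without vehicle culture 2 or TGF-β1 culture 7) and 1 to 2 (1 without vehicle culture 3 or TGF-β1 culture 7 or 8). The number of linkers called higher was 1 with library totals and with at least 1 count in any culture, and 1 to 2 with a culture left out, the gene lost being *Rdx*. The log2 fold change of *Hmmr* was −0.00336 to 0.0603 with a culture left out, negative without vehicle culture 1 (−0.00336) or 2 (−0.000629). The share of *Has2* among the synthases was 21.1% in TGF-β1 cultures with the longest transcript as length, and 1.51% in vehicle and 14.1% in TGF-β1 cultures with the longest protein-coding transcript (added after the data were seen), because the length assigned to *Has1* falls. DESeq2 called 8655 of 26385 genes. The causes of the other shifts were not tested. Depth limits *Acan* most, and values from few counts, such as those of *Has2os* and *Stab1* in vehicle, are the least precise.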
